A study of Mus musculus with 4 samples.

Results

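The hypoxia response was examined through 10 of the 12393 genes measured: Hif1a, which encodes the oxygen-regulated subunit of hypoxia-inducible factor (HIF), the oxygen sensor genes Egln1 and Egln3, and the HIF target genes Vegfa, Bnip3, Adm, Ndrg1, P4ha1, P4ha2 and Ddit4. The members are the 21 probe sets, of 22626 that are not array controls, that the platform annotation assigns to one of these genes alone, and 17 of them belong to the 9 genes other than Hif1a. The genes were chosen by their place in the pathway, with their signals in these same arrays already known, so the values below are descriptions. The cells were neural stem cells from the ganglionic eminences, the ventral germinal zones of the forebrain, of C57/Bl6 mouse embryos at embryonic day 14.5. They had been expanded without serum and with EGF. Wild-type cells gave 1 array. Cells labelled Olig1 KO, in which the gene for the oligodendrocyte-lineage factor Olig1 was knocked out, gave 3. The 3 are called KO replicates 1, 2 and 3, and the titles number replicates 2 and 3 as 37 and 38. The labels do not give the part of the gene that was deleted, the oxygen level or density of the cultures, or how many embryos or cultures gave the KO samples, so what the spread between them holds besides technical error is unknown, and the p-values cover that spread alone.

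HIF is a pair of proteins, an unstable alpha subunit such as Hif1a and a stable partner, Arnt. When oxygen is present, prolyl hydroxylases of the Egln family mark the alpha subunit, the ubiquitin ligase subunit Vhl binds it, and the proteasome removes it. When oxygen falls, the protein accumulates and binds short hypoxia response elements beside its target genes. Because this control acts on the protein, the mRNA of Hif1a itself need not follow the activity of the pathway. Egln1 and Egln3 are themselves HIF targets, which closes a feedback loop. Embryonic neural stem cells normally live in a low-oxygen germinal zone.

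The arrays were first checked as a whole. The authors had scaled all 4 to a trimmed mean signal of about 500.2. Olig1 itself read 7618 for wild type and 3839.6, 4438 and 8548 in KO replicates 1, 2 and 3, so it did not separate the labelled genotypes, and every direction below rests on the labels. The wild-type array and KO replicate 1 shared high Xist signals (9480.5 and 8472) and low signals for 18S ribosomal RNA (4.64 and 7.24, medians of 3 probe sets). In KO replicates 2 and 3 these were 160.9 and 46.5 for Xist and 946 and 2823 for 18S. The Y-linked gene Eif2s3y read 0.61 for wild type and 1.53, 654 and 1160.5 for KO replicates 1, 2 and 3, so in both sex-linked genes KO replicate 1 resembled wild type and not the other KO arrays, and sex cannot be told apart from the other differences between these arrays. The highest of 27 bacterial control probe sets without a target, used here as the background of an array, was 30.5 for wild type and 21.3, 39.99 and 87.8 in KO replicates 1, 2 and 3. All 10 neural stem cell markers measured, such as Sox2 and Nes, were above this background in all 4 arrays, and 0 of 8 endothelial markers were. So were 4 of 8 neuron, 1 of 4 oligodendrocyte, 1 of 9 microglia, 2 of 7 mesenchyme and pericyte and 0 of 2 red blood cell markers.

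The signals of the HIF target genes spread widely over the 3 KO arrays, with the wild-type array mostly inside their range. All 17 probe sets of the 9 target and sensor genes gave their lowest signal in KO replicate 1, where 25.7% of all probe sets did so. In 13 of the 17, KO replicate 3 gave the highest signal, against 32.8% of all probe sets. The wild-type array lay inside the range of the KO arrays for 14 of the 17 (54.4% of all probe sets). The 4 Hif1a probe sets did not share this pattern: KO replicate 1 was the highest array for 3 of them (20.6% of all probe sets) and the lowest for 0, and KO replicate 3 was the highest for 0. These array-by-array counts were chosen after the values had been seen. Of the 17, 15 were above background in all arrays, and among these KO replicate 1 was lowest in 15 and KO replicate 3 highest in 11.

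**Figure D1:**
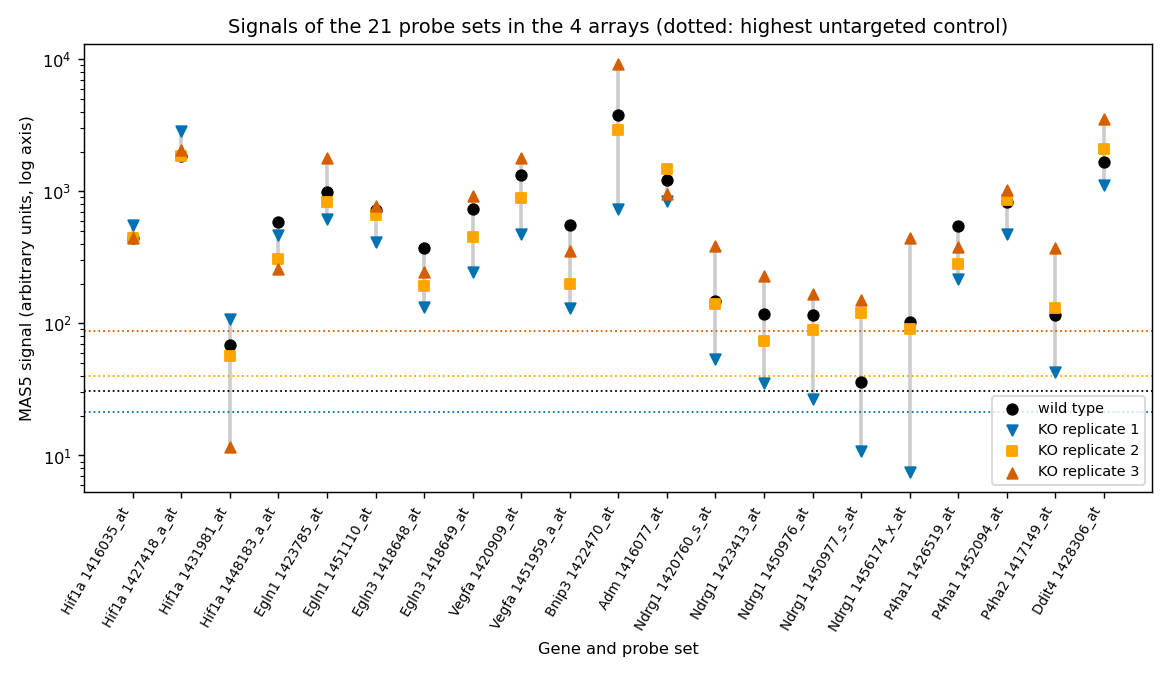
Signal of each of the 21 probe sets for wild type and the 3 KO arrays, on a log axis, with a grey line over the range of each probe set and a dotted line, in each array's colour, at its highest untargeted control. KO replicate 1 is lowest for all 17 probe sets of the target and sensor genes and highest for 3 of the 4 Hif1a probe sets.

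No member passed the test between genotypes. In limma over 13575 probe sets left after a filter on dim ones, which kept 19 of the 21 members, 0 probe sets were higher and 0 lower in KO at an adjusted p under 0.05 (0.0% each way). At an unadjusted p under 0.05 there were 324, of which 177 were higher (1.3% of those tested) and 147 lower (1.08%), and 1 member was among them. That was the Vegfa probe set 1451959_a_at, lower in KO with -1.35 in log2 (SE 0.53, limma adjusted p = 0.999). Differences are on the scale log2(signal + 14.4), which understates the change of dim probe sets, and ratios are of signals. The median log2 difference of the 21 members was -0.28, beside -0.011 over the tested probe sets, and it was -1.17 for KO replicate 1, -0.23 for KO replicate 2 and 0.32 for KO replicate 3 when each was set against the wild-type array. The wild-type array was below all KO arrays for 0 members (25.1% of all probe sets) and above all of them for 4 (20.5%). Single KO arrays decided these values: without KO replicate 1 the first count was 4, the median was 0.073 and limma called 5 probe sets, none of them a member but Xist and Eif2s3y among them, without KO replicate 2 the first count was 2, and without KO replicate 3 the second count was 13 and the median was -0.62. With 1 array against 3, a one-sided exact permutation test of a single value cannot give a p below 0.25, which is 0.5 when doubled for both sides.

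The Hif1a transcript was measured by 4 probe sets. The brightest, 1427418_a_at, gave 1856 for wild type and 2865, 1855 and 2068 for KO replicates 1, 2 and 3. Here KO replicate 1 stood above the other arrays, which lay close together. The probe set 1416035_at repeated this on a smaller scale, at 441.4 against 553.6, 439.9 and 443.9. Another, 1448183_a_at, was highest in the wild-type array, at 588.3 against 465.2, 305.8 and 257.6, so the probe sets of this gene did not rank the arrays alike. The dim 1431981_at gave 69.0 against 107.2, 56.8 and 11.7, the last at background, and was removed by the filter. In limma the 3 probe sets tested differed between genotypes by 0.11 (SE 0.34), 0.26 (SE 0.38) and -0.80 (SE 0.41), in the order 1416035_at, 1427418_a_at and 1448183_a_at (adjusted p = 0.999 for each).

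The sensor genes ranked the arrays as the targets did, with KO replicate 1 lowest. Egln1, the main prolyl hydroxylase that marks HIF alpha subunits in normal oxygen, gave 988.3 for wild type and 613.2, 832.1 and 1787 in KO replicates 1, 2 and 3 with 1423785_at. Its second probe set, 1451110_at, gave 728.0 against 415.1, 663.9 and 769.0. Both placed KO replicate 1 lowest and KO replicate 3 highest, at a ratio of 2.91 and 1.85 between them. Egln3, the hydroxylase most strongly induced by HIF in many cells, gave 737.2 against 243.2, 453.3 and 921.8 with 1418649_at. With 1418648_at it gave 371.7 against 132.1, 192.2 and 245.4. The Egln3 probe sets agreed that KO replicate 1 was lowest, at 0.33 and 0.36 times the wild-type signal, but only 1418649_at had KO replicate 3 above the wild-type array.

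Vegfa encodes the growth factor through which hypoxic tissue recruits blood vessels. Its probe set 1420909_at gave 1339 for wild type and 478.4, 893.5 and 1778 in KO replicates 1, 2 and 3. The second, 1451959_a_at, gave 557.3 against 130.4, 199.0 and 353.9. The wild-type array was 2.80 and 4.28 times KO replicate 1 with the pair, and only the second had it above every KO array. Adm, which encodes the vasodilator peptide adrenomedullin, gave 1227 against 837.7, 1485 and 951.1. Of the target genes it had the narrowest range between KO replicates 1 and 3, a log2 difference of 0.18, and KO replicate 2 was its highest array.

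Bnip3, a mitochondrial protein gene that promotes removal of mitochondria and cell death, had the widest range among the genes above background in every array. It read 3759 for wild type and 740.2, 2927 and 9139 in KO replicates 1, 2 and 3. The KO arrays thus spanned a ratio of 12.3, with the wild-type array and KO replicate 2 in the middle. The SD of its log2 values over the KO arrays, 1.80, was above that of 99.9% of the probe sets tested. Its log2 difference between genotypes was -0.47 (SE 1.18, limma adjusted p = 0.999), with an error larger than the difference. It was 0.46 without KO replicate 1 and -1.34 without KO replicate 3.

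Ndrg1, a stress-responsive gene used as a marker of hypoxia, was dimmer and was read by 5 probe sets. The brightest on average that was above background in all arrays, 1420760_s_at, gave 146.8 for wild type and 54.2, 141.0 and 386.5 in KO replicates 1, 2 and 3. The probe set 1423413_at gave 118.2 against 35.1, 73.0 and 228.6, and 1450976_at gave 115.6 against 26.7, 89.1 and 166.3. All 3 ranked KO replicate 1 lowest and KO replicate 3 highest, at ratios of 7.13, 6.52 and 6.23 between them. The others, 1450977_s_at and 1456174_x_at, had KO replicate 1 at background (10.8 and 7.51), so no ratio is given against it. They reached 150.2 and 445.2 in KO replicate 3. The suffix of 1456174_x_at marks possible cross-hybridization, and 1450977_s_at was removed by the filter.

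P4ha1 and P4ha2 encode the catalytic subunits of collagen prolyl 4-hydroxylases, which use oxygen to modify collagen and are distinct from the Egln sensors. P4ha2 gave 115.2 for wild type and 43.1, 130.4 and 374.7 in KO replicates 1, 2 and 3, a ratio of 8.70 between replicates 3 and 1. P4ha1 varied less: 1452094_at gave 826.5 against 478.4, 856.6 and 1029.96, and 1426519_at gave 549.9 against 216.9, 279.3 and 381.7. Both P4ha1 probe sets had KO replicate 1 lowest, but 1426519_at had the wild-type array highest. Ddit4, an inhibitor of the growth kinase complex mTORC1 that HIF and other stress pathways induce, gave 1652 against 1117, 2083 and 3515. Its 3 KO signals spanned a ratio of 3.15, and the wild-type array was 1.48 times KO replicate 1.

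Hypoxia response elements share a core of 5 bases, ACGTG or GCGTG, and both were searched on both strands (from the other strand they read CACGT or CACGC) in the RefSeq promoter windows of build GRCm38.p6, each 250 bases before to 50 bases after a start site. Matches that overlapped, as in the palindrome CACGTG, or touched were counted as 1. Of the 10 genes, 9 had a window, Ndrg1 being the exception, and each of the 9 held a match in at least 1 of its windows, against 46.7% of all genes with a window. By window, 9 of 10 held a match, against 43.8% of all 32851. There were 2 or more separate matches in 8 of the 10 member windows, against 17.2% of all windows. A match says only that these letters are present. The upstream stretches below run 5′ to 3′ on the strand of the gene, from 10 bases before to 10 bases after the matches upstream of the start site, with matches in capitals. They are shown for Bnip3, P4ha2 and Ddit4 as targets with a wide range, for both sensors, and for Hif1a, whose signals ranked the arrays otherwise. Bnip3 lies at chr7:138909527-138909633 (minus strand), P4ha2 at chr11:54100807-54100869 (plus), Ddit4 at chr10:59951871-59951967 (minus), Egln1 at chr8:124949308-124949390 (minus), Egln3 at chr12:54204089-54204113 (minus) and Hif1a at chr12:73907722-73907811 (plus).
Bnip3: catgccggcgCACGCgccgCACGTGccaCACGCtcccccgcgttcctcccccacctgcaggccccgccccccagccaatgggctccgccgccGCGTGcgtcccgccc
P4ha2: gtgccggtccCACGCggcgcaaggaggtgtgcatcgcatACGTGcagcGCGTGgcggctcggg
Ddit4: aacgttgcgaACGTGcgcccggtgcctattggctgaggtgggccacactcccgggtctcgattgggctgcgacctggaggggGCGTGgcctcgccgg
Egln1: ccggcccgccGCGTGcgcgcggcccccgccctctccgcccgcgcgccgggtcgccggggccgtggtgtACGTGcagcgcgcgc
Egln3: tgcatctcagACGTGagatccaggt
Hif1a: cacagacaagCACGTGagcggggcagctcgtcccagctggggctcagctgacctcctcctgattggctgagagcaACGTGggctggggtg
Bnip3, with the widest range of signals among the genes above background in every array, showed 4 separate matches in its stretch. P4ha2 showed 3, and P4ha1, which had a narrower range of signals and is not printed, also held 3. Hif1a showed 2, as many as Ddit4 and Egln1, although its probe sets did not rank the arrays as theirs did. Adm, not printed and with a narrow range between KO replicates 1 and 3, also held 2. Egln3 showed 1, with ratios of 1.86 (1418648_at) and 3.79 (1418649_at) between KO replicates 3 and 1. Whether the number of matches goes with the range of signals was not tested.

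The wild-type array and KO replicate 1 were otherwise the most alike of all pairs of arrays, with an SD of 0.37 for their log2 differences over the tested probe sets, against 0.52 to 0.72 for the other 5 pairs. Even so, 12 of the 17 target and sensor probe sets were at least 2-fold lower in KO replicate 1 than in the wild-type array. On the same scale, log2(signal + 14.4), 4.26% of all probe sets and 1.22% of those tested were. KO replicates 2 and 3 were compared as well. In 16 of the 17, KO replicate 1 was below the wild-type array and KO replicate 3 above KO replicate 2, against 26.5% of all probe sets. The exception was Adm. This count restates the pattern described above, from the same values that prompted it, and is no further evidence for it. For Hif1a, 0 of 4 probe sets did so.

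**Figure D2:**
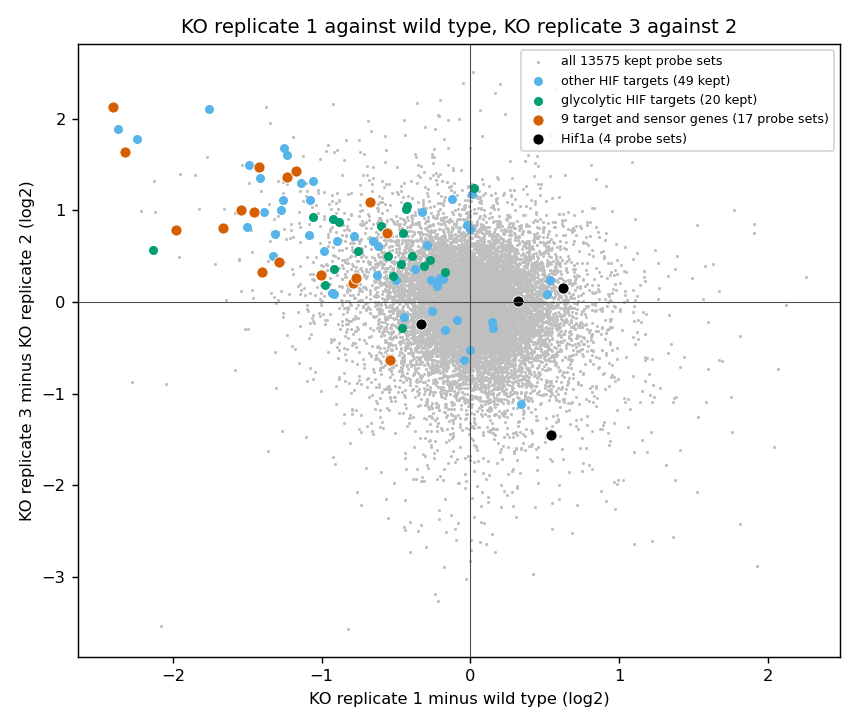
Each point is a probe set, with the log2 difference of KO replicate 1 from wild type on the horizontal axis and that of KO replicate 3 from KO replicate 2 on the vertical axis. Of the 17 target and sensor probe sets (orange), 16 lie at the upper left (left of and above 0), while the 4 Hif1a probe sets (black) do not.

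Other HIF targets, from lists of known targets drawn up with earlier results of these arrays known, were read in the same way. Of 14 glycolytic targets, 11 were measured, by 21 probe sets, of which 17 (81.0%) had KO replicate 1 lowest and 15 (71.4%) had KO replicate 3 highest. The lactate exporter gene Slc16a3 gave 220.1 for wild type and 38.9, 185.5 and 281.8 in KO replicates 1, 2 and 3. Ldha, which makes lactate, gave 11577.6 against 7863, 11772 and 16644. Both had KO replicate 1 lowest and KO replicate 3 highest, with a wider range in Slc16a3. Of 40 other targets, 33 were measured by 68 probe sets, 37 of which (54.4%) had KO replicate 1 lowest and 36 (52.9%) KO replicate 3 highest. The glucose transporter gene Slc2a1 gave 433.7 against 118.1, 288.3 and 1286 with 1434773_a_at. Pdk1, which diverts pyruvate from mitochondria, gave 914.1 against 381.4, 585.3 and 1810.4 with 1423747_a_at. Not all targets did so: Hmox1, the heme oxygenase gene, gave 552.9 against 704.8, 295.7 and 128.8, lowest in KO replicate 3. These 5 genes were chosen after their values were seen. The 1 probe set of these lists with the wild-type array at least 2-fold from every KO array was 1421829_at of the adenylate kinase gene Ak4, at 207.2 against 90.3, 34.5 and 91.4, with KO replicate 2 at background. Over all probe sets, 1.44% were so far apart. Of the other Ak4 probe sets, 1421830_at gave 959.0 against 698.6, 825.2 and 737.6, also highest in the wild-type array, 1450387_s_at gave 836.4 against 712.8, 873.5 and 991.5, and 1421831_at was at background in 3 of the 4 arrays.

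**Figure D3:**
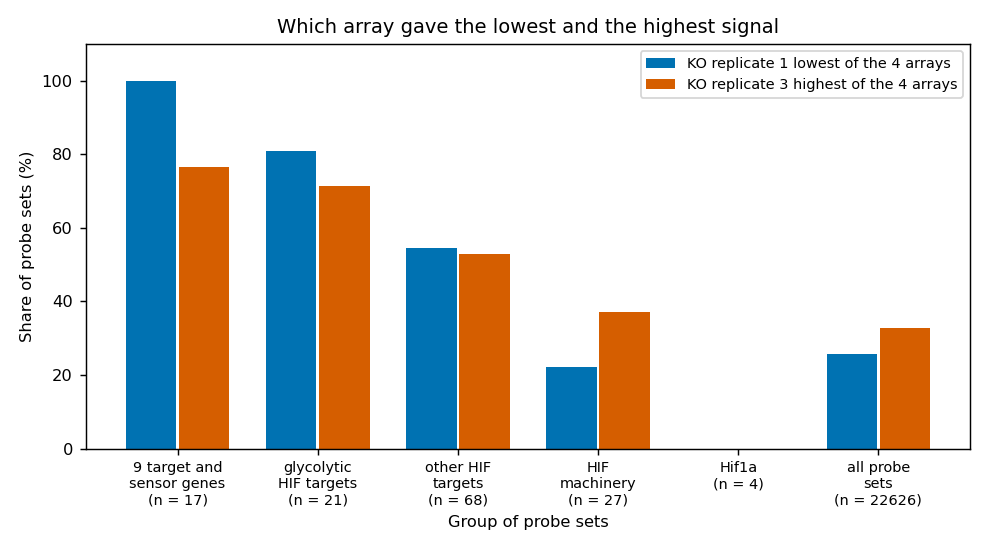
Bars give, from 0, the percent of probe sets in each group for which KO replicate 1 was the lowest (blue) or KO replicate 3 the highest (orange) of the 4 arrays. The target groups stand above all 22626 probe sets (25.7% and 32.8%), the HIF machinery (22.2% and 37.0%) is close to them, and Hif1a has 0 of 4 in both.

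In the machinery that controls HIF, the shares with KO replicate 1 lowest or KO replicate 3 highest were near those of all probe sets. Of 18 genes listed, 14 were measured by 27 probe sets, of which 6 (22.2%) had KO replicate 1 lowest and 10 (37.0%) KO replicate 3 highest. Vhl gave 539.2 for wild type and 274.7, 273.5 and 203.9 in KO replicates 1, 2 and 3, differing by -1.07 in log2 (SE 0.35, limma adjusted p = 0.999). Each KO array lay below the wild-type array, as in 10 of the 27 machinery probe sets (37.0%, against 20.5% of all probe sets). Egln2, a further hydroxylase of the family, gave 771.0 against 650.8, 494.7 and 592.9, also highest in the wild-type array. Arnt gave 168.3 against 125.8, 86.7 and 67.4 with 1421721_a_at and 91.6 against 68.7, 95.4 and 80.3 with 1425064_at, both at background in KO replicate 3. Its probe sets thus ranked the arrays differently. Epas1, the alternative alpha subunit also called HIF-2 alpha, gave 52.8 against 22.7, 12.5 and 25.0, at background in KO replicates 2 and 3 and removed by the filter. The wild-type array was below all KO arrays in 4 of the 27 (14.8%, against 25.1%), among them 1434633_at of the coactivator gene Crebbp, at 35.98 against 157.8, 79.7 and 174.1, and 2 of the 3 probe sets of the ubiquitin ligase gene Siah1a, with log2 differences of 1.02 and 1.04. The other Siah1a probe set differed by 0.21, and both genes were chosen after their values were seen. No probe set of the 3 lists passed the test between genotypes (of 116, 94 were tested, with 0 called by limma and 6 at an unadjusted p under 0.05).

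Several other measures also had KO replicate 1 lowest and KO replicate 3 highest. The summed signal of the 10 neural stem cell markers was 42026 for wild type and 39496, 55106 and 58855 for KO replicates 1, 2 and 3. Of the 10, only Fabp7 had this order itself, at 16547 against 13667, 25380 and 34007. Nes, Egfr, Sox9, Hes1, Slc1a3 and Pax6 were instead lowest in KO replicate 3. For 4 oligodendrocyte markers the sum was 196.2 against 145.9, 250.1 and 389.9, with Mog and Mobp at background in all arrays. Mbp had this order itself, at 173.5 against 53.2, 123.7 and 224.4. Mag did not: it was lowest for wild type, at 17.5 against 89.9, 91.0 and 137.0, with wild type at background. For 7 mesenchyme and pericyte markers, 2 of them above background in all arrays, the sum was 646.5 against 439.3, 730.5 and 818.3. Neither of those 2 had this order itself. Acta2 gave 444.6 against 244.7, 441.1 and 371.9, with wild type highest. Col1a2 gave 107.5 against 75.4, 74.4 and 126.2, with KO replicate 2 lowest. For 2 red blood cell markers the sum was 28.9 against 27.0, 40.3 and 67.0. Of these, Alas2 was at background in all arrays and Hba-a1 in all but KO replicate 1, so this order is one of background readings. The sums for neurons (2935, 2719, 2869 and 1782), endothelium (321.4, 274.1, 361.6 and 269.6) and microglia (279.3, 289.1, 406.6 and 367.6) had other orders. The level of hybridization spikes was 0.90, 1.89 and 2.75 times the wild-type array in KO replicates 1, 2 and 3. The 3′/5′ ratio of beta-actin, which RNA breakdown raises, was 1.11, 1.25, 1.30 and 1.82 in wild type and KO replicates 1, 2 and 3, with wild type lowest. That of Gapdh had another order, at 0.76, 0.79, 1.03 and 0.84, with KO replicate 2 highest. The part of these in the differences between arrays was not tested. In bulk cultures fewer cells of a kind and less RNA per cell cannot be told apart.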

How the data were processed

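Expression was measured on Affymetrix arrays, 1 per sample. Signal intensities, linear and already scaled, were made by the authors with MAS5, per the submitters' processing notes, which are the only source for this step here; its version is not stated in them. Of 22690 probe sets, 64 were controls and left out. The platform's annotation table named 1 gene for 20393, more than 1 for 691 and no gene for 1606; symbols were brought up to date by gene identifier in RefSeq (GRCm38.p6). Log2(signal + 14.4) was analysed, with a pseudocount 0.1 times the overall median and no further scaling. The dimmest 40% of probe sets by mean were not tested. limma 3.58.1 in R 4.3.3 (lmFit, eBayes, two-sided) compared KO with wild type in each of 13575 probe sets, with Benjamini-Hochberg adjustment and a threshold of 0.05. Its error rests on the KO arrays alone, with 2 residual degrees of freedom, and so takes wild type to be as variable. The fit was tested on simulated data. The number of arrays limits precision. Members and lists were chosen with earlier results of these data known. Named were every member probe set, list genes whose wild-type signal was 1 log2 unit or more away from all KO arrays, Epas1, Arnt, Vhl and Egln2, and a few genes stated as chosen after their values were seen. Alternatives changed the pseudocount, scaling, filter, eBayes settings, KO arrays used, pairs of arrays as a block and probe sets per gene.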

Additional observations from a re-analysis of the deposited data

How the results depend on the processing

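No probe set was called between genotypes under any alternative but one: without KO replicate 1, limma called 5 probe sets, none of them a member (1 each of Eif2s3y, Xist and Tmem87a, and 2 without a gene name), and leaving out each KO array in turn gave 0 to 5 calls. The median log2 difference of the members was -0.28. It ranged from -0.62 to 0.073 when 1 KO array was left out, positive only without KO replicate 1. It was -0.47 with a pseudocount of 1, -0.19 with one of 0.5 times the median and -0.080 with 1 probe set per gene. It was -1.17 with the pairs of arrays as a block, a fit in which only KO replicate 1 and wild type inform the difference. The count of members with the wild-type array below all KO arrays was 0, and it was 2 with quantile normalization, 2 with median centring and 0 to 4 with 1 KO array left out (4 without KO replicate 1). The count with it above all of them was 4, and it was 5 to 13 with 1 KO array left out (13 without KO replicate 3) and 0 of 10 with 1 probe set per gene. KO replicate 1 was lowest in 17 and KO replicate 3 highest in 13 of the 17 target and sensor probe sets under quantile normalization and median centring. With 1 probe set per gene these were 9 of 9 and 8 of 9. These last alternatives were chosen after seeing the data. Of 238 values of single members under the alternatives, 11 moved by more than 1 SD of the KO arrays and 19 changed sign. All 11 came from the fit with the pairs of arrays as a block. A changed filter or 1 probe set per gene cannot alter the difference of a probe set. Leaving out 1 KO array cannot move it by 1 SD, even where its sign changes. The count of moved values is therefore no measure of how stable the members were. The labels give the groups no shared replicate numbers, so the pairs in that block come from the arrays' sex-linked and control signals, not from the design; with it, limma called 0 probe sets and 173 had an unadjusted p under 0.05. Signal over background limits the Ndrg1 and Hif1a probe sets named as at background, and 1 wild-type array limits every comparison of genotypes.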
